A study of Mus musculus with 4 samples.

Results

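Mouse cleavage and polyadenylation sites that were both abundantly used and densely covered by CstF64 crosslinks are described here. Cleavage positions came from 3'READS, a method that sequences RNA fragments captured by their poly(A) tail to locate where the mRNA was cut. CstF64 contacts came from CLIP-seq, in which UV light fixes a protein to the RNA it touches. The cleavage positions of the 3'READS files were summed, and neighbours on a strand up to 24 nt apart were joined, which gave 164123 clusters. A site is such a cluster, its reads are the pooled 3'READS count, and its top position is the position with most reads. A CLIP line is 1 distinct alignment in a CLIP file. Dense sites had 1000 or more reads, and in each CLIP replicate 10 or more lines whose midpoint lay within 100 nt of the top position on the same strand. Of 1408 autosomal sites with 1000 or more reads, 218 reached the CLIP minimum in replicate 1, 276 in replicate 2 and 215 in both. These 215 dense sites made up 15.3% of the abundant autosomal sites, and the 1193 other abundant sites serve as the comparison. The sites were selected on their reads and CLIP lines, so both are described without a test. All positions are in the mm9 build and exact to within 1 nt.

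Both 3'READS libraries came from a commercial Agilent RNA mixture of 11 mouse cell lines. One library was captured with CU5T45, a chimeric oligo whose long T stretch binds the poly(A) tail, and the other with commercial oligo(dT)10-25 beads. The 2 CLIP libraries, labelled replicates 1 and 2, came from proliferating C2C12 cells, a mouse myoblast line. RNA of the mixture and RNA of C2C12 cells are different samples, and which of the lines used a given site cannot be told from the mixture. Fewer cells using a site and less RNA per cell cannot be told apart in such bulk material. The files held 6738355 reads for CU5T45 and 3482826 for oligo(dT)10-25. The CLIP files held 1101047 lines in replicate 1 and 1352122 lines in replicate 2.

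CstF64 is the subunit through which the cleavage stimulation factor binds RNA. This complex recognises U-rich and GU-rich RNA downstream of the cleavage site, while a second complex, the cleavage and polyadenylation specificity factor, recognises the poly(A) signal upstream of it. Together they direct cleavage of the nascent transcript, after which a poly(A) tail is added. RNA downstream of the cut is part of the nascent transcript but not of an mRNA that ends at this cut. It can be part of an mRNA that ends farther downstream. Of the dense sites, 55 (25.6%) had another site of 30 or more reads downstream within 5000 nt. An alignment that crosses the cleavage position therefore comes from RNA that had not been cut there.

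The dense sites held a small share of the cleavage reads and most of the CLIP lines found at abundant sites. Their 803816 reads were 8.26% of the CU5T45 library and 7.11% of the oligo(dT)10-25 library, and 12.3% of the reads at abundant autosomal sites. Summed over sites, 5214 lines of replicate 1 and 6231 lines of replicate 2 lay within 100 nt of them. Overlapping windows counted a few lines more than 1 time, and the distinct lines numbered 5202 and 6217. The sums were 69.4% and 68.8% of all lines at abundant autosomal sites, but only 0.474% and 0.461% of all lines in the files. The opposite strand held 47 and 52 lines in the same windows, and 198 of the 215 windows held none. The site at chr17:56753719 on the minus strand, chosen after its values were seen, was the only one with 10 or more lines in each replicate on the opposite strand, at 16 and 14 lines, beside 10 and 11 lines on its own strand.

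Line counts at the dense sites were skewed toward the minimum. In replicate 1 the lowest count was 10, the median 18 and the highest 281, and in replicate 2 they were 10, 21 and 284. In the lower replicate 121 sites (56.3%) had under 20 lines, 11 had 50 or more and 4 had 100 or more. Just inside the CLIP minimum, the site at chr6:72561509 on the minus strand had 10 lines in each replicate and 1608 reads. Just outside, the site at chr19:4800921 on the minus strand had 9 and 14 lines and 1908 reads. At the lower replicate's limit, 19 dense sites stood at 10 lines and 22 other abundant sites at 9. Just inside the read minimum, chr11:60677953 on the minus strand had 1020 reads with 29 and 41 lines, and just outside it chr6:47476074 on the plus strand had 993 reads with 11 and 14 lines. The edge of the set was thus well filled on both sides, and a minimum of 20 lines would leave 94 sites.

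The CLIP replicates shared much of their content at these sites. Replicate 2 had more lines at 188 sites, replicate 1 at 8, and 19 were equal, as replicate 2 held 1.23 times as many lines in all. The ratio of replicate 2 to replicate 1 had a median of 1.18 and ran between 0.833 and 2. Of the 5202 distinct replicate 1 lines at the dense sites, 80.0% were present with the same ends in replicate 2. A chi-square over the sites gave 0.205 per degree of freedom, less than counting noise alone would give. The replicates were therefore counted as 1 sample, with both values printed and no test made.

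Around the top position, CLIP lines were concentrated within about 40 nt on both sides, and the highest point lay just upstream. With every site given equal weight and distances taken from the line's midpoint, the highest 5 nt bin was -20 to -15 nt in both replicates. It held 6.44% of a site's lines in replicate 1 and 6.19% in replicate 2. Bins at or above 50% of that height reached from -35 to 20 nt in replicate 1 and from -40 to 20 nt in replicate 2. The 40 nt upstream held 40.8% and 41.1% of the lines, and the 40 nt downstream 27.7% and 27.8%. The remaining lines were split between 17.0% and 16.9% farther upstream and 14.5% and 14.1% farther downstream. Downstream of the cut replicate 1 showed a shoulder, with its highest bin at 0 to 5 nt, at 4.27%. Replicate 2 fell to 3.83% at 5 to 10 nt and rose again to its highest downstream bin, 10 to 15 nt, at 4.38%.

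The 227 other abundant sites with 10 or more lines over both replicates showed a profile of similar shape. Their highest bin was -25 to -20 nt, with 6.33% and 6.27% of a site's lines. The 40 nt upstream held 35.5% and 36.7%, and the 40 nt downstream 27.0% and 26.0%. The 40 nt upstream thus held more of the lines at dense sites, in both replicates, and the peaks stood 1 bin apart. The replicates count as 1 sample, so this difference was not tested. In plain line counts the peak of the dense sites moved to -15 to -10 nt, with 292 lines in replicate 1 and 350 in replicate 2.

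**Figure D1:**
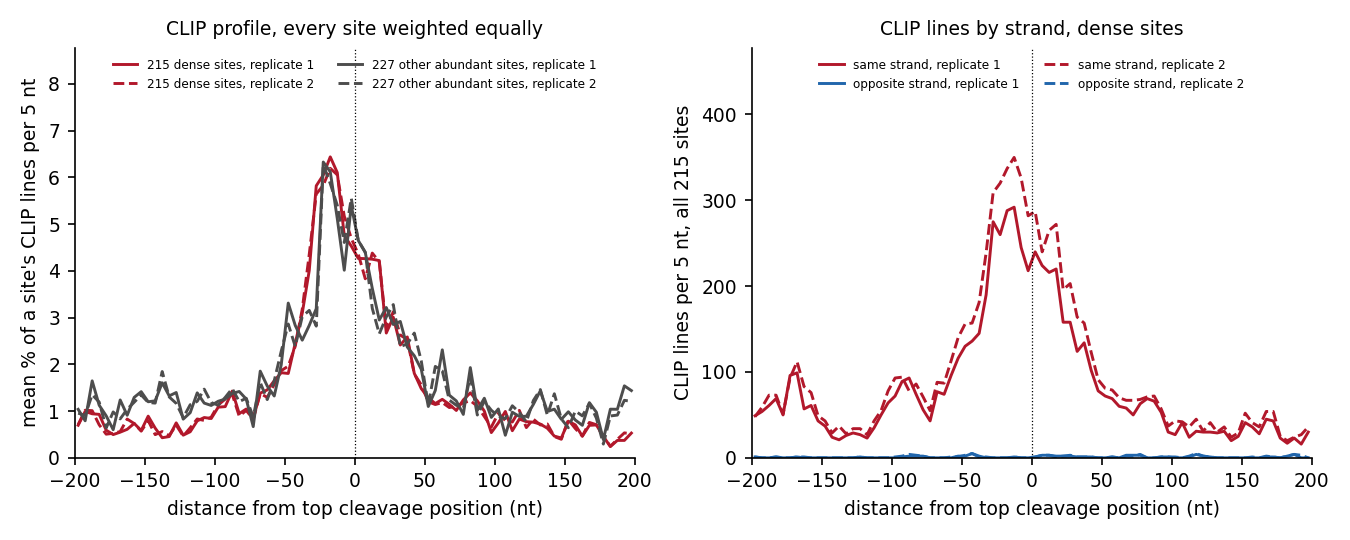
The left panel plots, per 5 nt and by replicate, the mean share of a site's CLIP lines against the distance from the top position in nt, for the 215 dense sites (red) and 227 other abundant sites with 10 or more lines (grey); the share is of the lines within 100 nt. The right panel plots summed line counts at the dense sites on the same strand (red) and the opposite strand (blue). Both sets are highest just upstream of the cut, at 6.44% and 6.19% for the dense sites, and the opposite strand stays near 0.

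The order of the sides depended on which point of an alignment was used. By midpoints, 56.9% and 57.2% of the lines at dense sites lay upstream, against 56.3% and 56.6% at all other abundant sites. Site by site, 129 of 215 (60.0%) had more lines upstream, 84 (39.1%, exact 95% interval 32.5 to 45.9%) more downstream and 2 equal numbers. Among the 227 other sites, 92 (40.5%) had more downstream. Placed by their 5′ ends, only 22.9% of the dense sites had more lines downstream, and by their 3′ ends 61.6% had. The median line length, taken per dense site, had a median over the sites of 35 nt in replicate 1 and 36 nt in replicate 2. Both sides of the cut thus lay within 1 alignment of each other.

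Many lines crossed the cleavage position. Lines that ended upstream made up 38.3% and 37.6%, lines that touched or crossed the top position 34.3% and 35.2%, and lines that began downstream 27.3% and 27.2%. Crossing by at least 5 nt on both sides was seen for 24.5% and 25.3% of the lines, against 22.6% and 22.9% at the other abundant sites. At 40 dense sites (18.6%) 50% or more of the lines crossed in this way, against 45 of the 227 other sites (19.8%). No such line was found at 31 dense sites. Lines of RNA not cut at the top position were thus present at 184 of the 215 dense sites (85.6%). At the 227 other sites, chosen with fewer lines, they were present at 149 (65.6%). Alignment ends were also placed unevenly. Within 3 nt of the top position lay 8.42% and 8.15% of the 3′ ends, against 6.14% and 6.02% in the 7 nt before it and 5.72% and 6.15% in the 7 nt after it. The 3′ ends were nearly as frequent from 25 to 31 nt, with 7.23% and 7.46%. Among 7 nt bins between -45 and 45 nt, the 5′ ends were most frequent from -31 to -25 nt, with 8.59% and 8.86%, and nearly as frequent in the outermost bin, -45 to -39 nt, with 8.32% and 8.23%. Ends within 3 nt of the cut were also frequent at the 227 other sites, at 7.70% and 7.45%, beside 7.43% and 7.94% in the 7 nt before.

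Sites differed widely in where their lines lay and in how closely these were gathered. The best 20 nt stretch held a median of 60.0% of a site's lines in both replicates, with a lower quartile of 46.2% in replicate 1 and 46.7% in replicate 2. The lowest share was 23.5% in replicate 1 and 28.6% in replicate 2, and the highest was 100%. The median midpoint had quartiles of -23.6, -7 and 13.5 nt in replicate 1 and -24.5, -7.5 and 13 nt in replicate 2. In replicate 1, 105 sites had it within the 40 nt upstream, 77 within the 40 nt downstream, 21 farther upstream and 12 farther downstream. In all, 37 sites (17.2%) had 90% or more of their lines upstream and 11 (5.12%) had 90% or more downstream. Most sites thus had lines on both sides of the cut. Distinct 5′ ends numbered 12 and 14 at the median site. Similar spread was seen at the 227 other abundant sites with 10 or more lines. There, 41 (18.1%) had 90% or more upstream and 23 (10.1%) downstream. Their best 20 nt stretch also held a median of 60.0%. Quartiles of their median midpoint were -23.4, -5.5 and 18.4 nt in replicate 1.

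**Figure D2:**
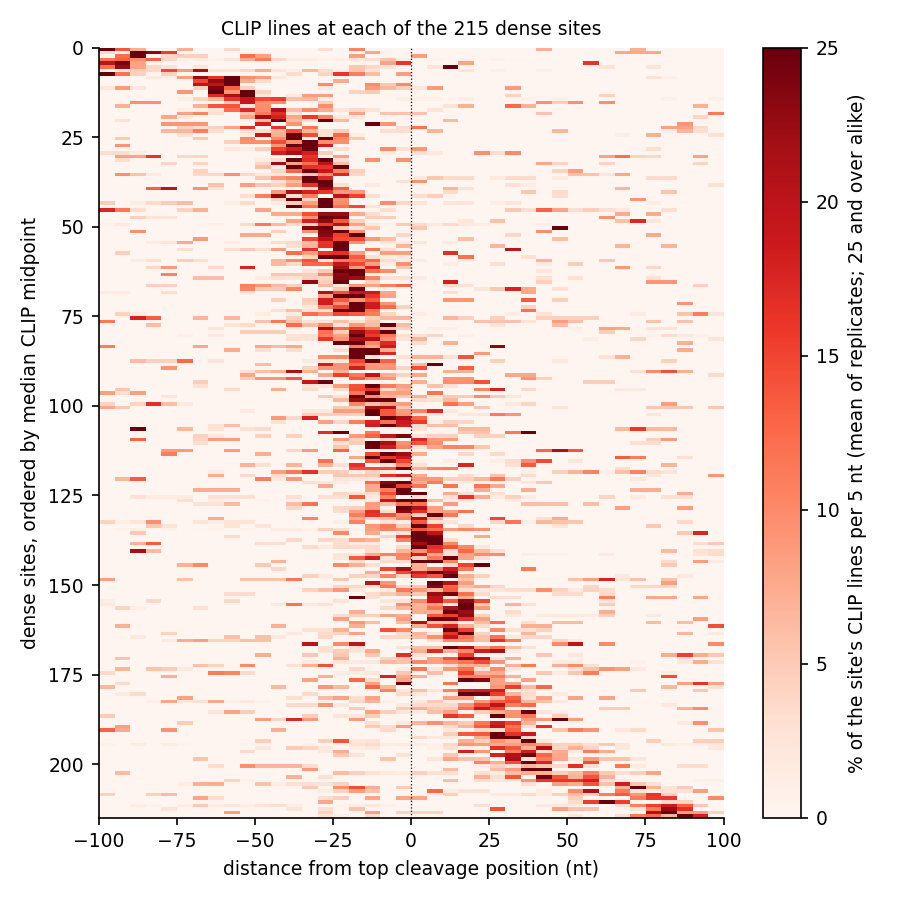
Each row is 1 of the 215 dense sites, ordered by its median CLIP midpoint, and each column 5 nt of distance from the top position (dotted line); colour gives the share of the site's CLIP lines, as the mean of both replicates. By the order of the rows, the dark bins run from far upstream at the top to far downstream at the bottom. In replicate 1 the median midpoint of 105 sites lay within the 40 nt upstream and that of 77 within the 40 nt downstream.

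The sites with most lines, ranked by the lower replicate, differed in where the lines lay. The site at chr17:39985167 on the plus strand had 281 and 284 lines, of which 270 in each replicate lay upstream. The highest bin was at -95 to -90 nt in replicate 1 and -85 to -80 nt in replicate 2. It also had 822 and 870 lines in the stretch from 200 to 400 nt upstream, so the dense coverage there extended well beyond the window. The 3'READS positions at it were scattered as well, over 98 positions in 248 nt, with 15.7% of the reads at the top position. Which RNA these ends belong to was not analysed, so they need not be mRNA cleavage. This site alone held 5.39% and 4.56% of all lines at dense sites.

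The site at chr19:5842301 on the minus strand showed the opposite arrangement, with 176 and 216 lines, of which 150 and 179 lay downstream. Median midpoints there were 33 and 30.5 nt. With 517 CU5T45 reads and 624 oligo(dT)10-25 reads it had the most lines for its pooled reads of all dense sites, 172 per 1000 reads. The lines come from C2C12 cells and the reads from the mixture. At chr6:72791107 on the minus strand the lines lay on the cut itself: 86 of 140 and 104 of 162 lines crossed it by at least 5 nt. At chr15:31520637 on the minus strand, 114 of 121 and 133 of 143 lines lay upstream, with medians of -49.5 and -50 nt. These 4 were the sites with 100 or more lines in each replicate, with the lines mainly upstream at 2, downstream at 1 and across the cut at 1.

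The next 6 sites covered the same range. At chr17:85416467 on the plus strand the lines numbered 91 and 110, with 75 and 95 upstream and 26 in the bin at -20 to -15 nt in each replicate. This was the place of the average peak. At chr18:78021607 on the plus strand, 44 of 81 and 50 of 91 lines crossed the cut. At chr13:51943843 on the plus strand the 75 and 81 lines lay far downstream, with medians of 76 and 75 nt. CLIP at chr4:116372119 on the plus strand was the most confined of these, with 86.4% and 90.1% of 59 and 71 lines in 1 stretch of 20 nt and 48 and 61 of them crossing the cut. At chr11:97022845 on the minus strand 38 of 56 and 41 of 65 lines lay downstream, and at chr12:81268533 on the minus strand 46 of 54 and 70 of 82 lay upstream. Of the 10 sites, 5 had more lines upstream and 5 more downstream, in both replicates alike.

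**Figure D3:**
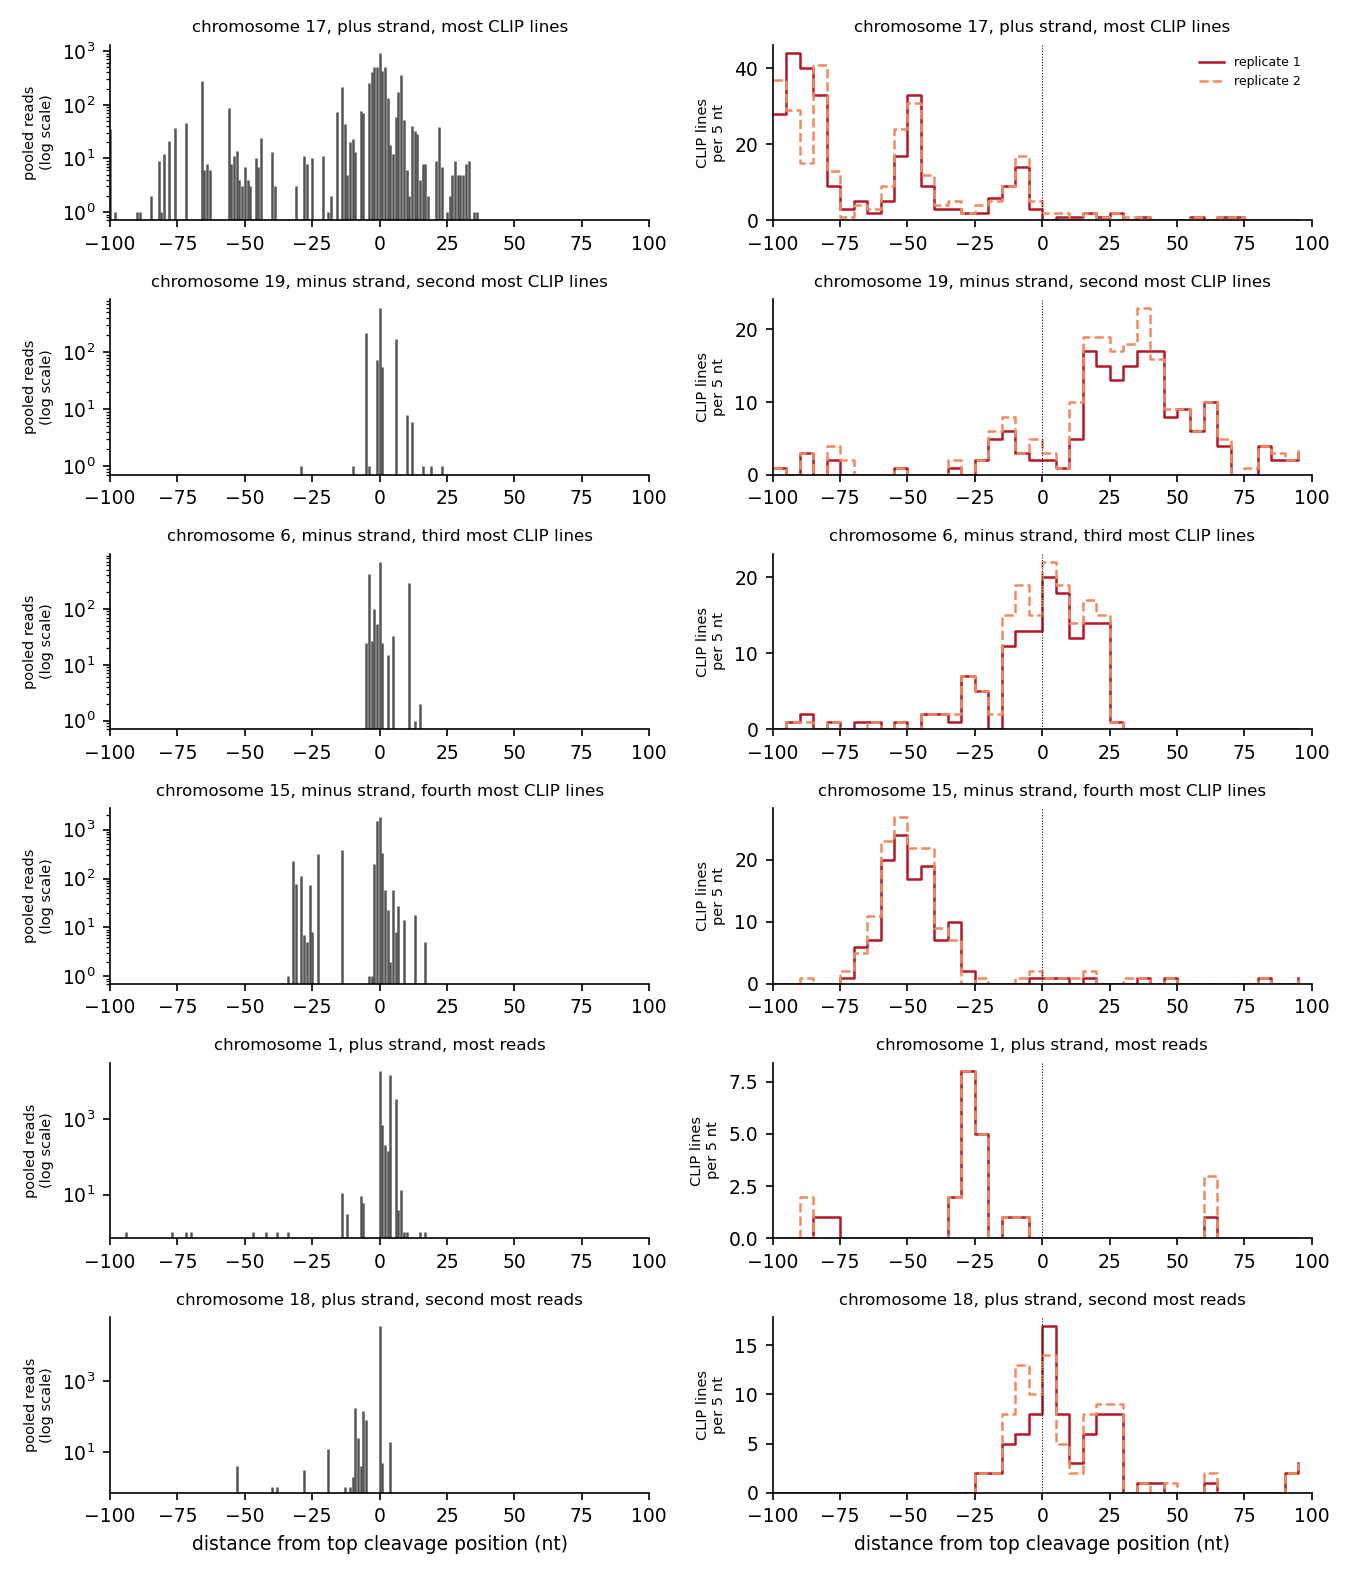
For 6 dense sites, the left column plots pooled 3'READS reads per position (log scale) and the right column CLIP lines per 5 nt in replicate 1 (solid) and replicate 2 (dashed), against distance from the top position, within 100 nt. The 4 upper sites have most CLIP lines (281 and 284 down to 121 and 143) and the 2 lower ones most reads; the lines lie upstream, downstream or across the cut depending on the site, and the replicates follow each other.

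CLIP density is given here for the window and for stretches farther away along the same strand, as a description, since the sites were selected on the lines in the window and not on those in the flanks. The windows held 12.1 and 14.4 lines per 100 nt. From 200 to 400 nt upstream there were 4.50 and 5.17 lines per 100 nt, and from 200 to 400 nt downstream 2.24 and 2.72. The site at chr17:39985167 decided the upstream value: without it, a choice made after seeing the data, the upstream flank held 2.61 and 3.16 lines per 100 nt. At 169 sites (78.6%) the window had at least 2 times the density of both flanks, against 141 of the 227 other sites (62.1%), which were chosen with fewer lines in the window. At 11 sites the upstream flank was denser than the window, and 15 sites had no line in either flank.

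Abundance of the dense sites was ordinary among abundant sites. Reads at the dense sites ran between 1020 and 37915 with a median of 2088, against a median of 1975 and a highest value of 339820 at the other abundant sites. In counts per 1000000 reads of a library (CPM), the median dense site had 227 in CU5T45 and 183 in oligo(dT)10-25. At 10000 or more reads there were 14 dense sites (6.51%, 3.61 to 10.7%) and 97 of the 1193 others (8.13%). Among the 547 abundant autosomal sites with no CLIP line at all, the median was 2318 reads and 11.7% had 10000 or more. Every abundant autosomal site above 37915 reads was among the others. The Spearman coefficient of lines and reads was 0.012 over the 215 dense sites, where both were cut off by the minimums, and -0.073 over all 1408 abundant autosomal sites. All of these sites share the same 4 libraries, with lines from C2C12 cells and reads from the mixture. The 72 sites with most lines (26 to 282.5, mean of replicates) had a median of 2041 reads and the 71 with fewest (10 to 15) a median of 2173.

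**Figure D4:**
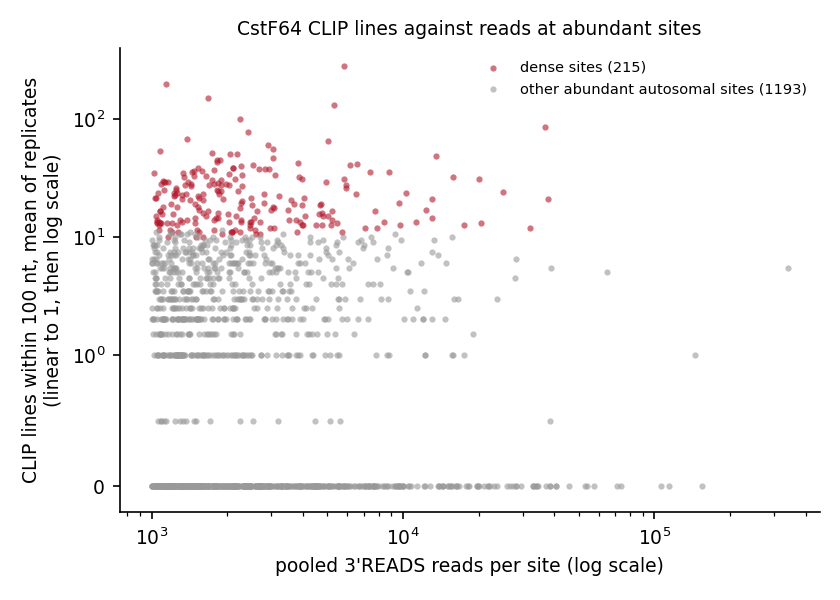
Each point is 1 of the 1408 abundant autosomal sites, with pooled 3'READS reads on a log axis and the mean number of CLIP lines within 100 nt on an axis linear to 1 and then log; dense sites are red and the 1193 others grey. The dense sites lie above 10 lines by their choice and run from 1020 to 37915 reads, and the sites with most reads are all grey.

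Of the 6 most used dense sites, 5 had 10 to 35 lines in either replicate and 1 had more. The site at chr1:75364290 on the plus strand had 24981 reads in CU5T45 and 12934 in oligo(dT)10-25, with 20 and 22 CLIP lines. Of these, 8 in each replicate lay from -30 to -25 nt. It used a pair of cleavage positions 4 nt apart, with 48.7% and 39.4% of the reads, and each library ranked a different one of them first. The site at chr18:78021607 followed with 26060 reads in CU5T45 and 10735 in oligo(dT)10-25, 98.7% of them at 1 position. It was the only site among both the 10 with most lines and the 6 with most reads.

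At chr5:136266260 on the plus strand, 21210 reads in CU5T45 and 10663 in oligo(dT)10-25 stood beside 12 lines in each replicate, the fewest per read of all dense sites at 0.376 per 1000 reads. The site at chr11:55208001 on the minus strand had 15696 reads in CU5T45 and 9292 in oligo(dT)10-25, with 18 of 21 and 17 of 27 lines downstream. The site at chr11:120421616 on the minus strand had 12625 and 7755 reads in the same order of libraries, with 10 and 16 lines. The site at chr15:76736743 on the plus strand had 15115 reads in CU5T45 and 5000 in oligo(dT)10-25, with 20 of 27 and 27 of 35 lines upstream. Over all dense sites the number of lines per 1000 reads had a median of 9.87 and a range from 0.376 to 172. This measure sets lines from C2C12 cells against reads from the mixture.

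The capture oligos gave similar shares at most dense sites. The ratio of a site's share of CU5T45 reads to its share of oligo(dT)10-25 reads had a median of 1.26 (quartiles 0.924 and 1.60), against 1.24 (0.884 and 1.59) at the other abundant sites. A ratio of 2 or more was seen at 21 dense sites (9.77%, 6.15 to 14.5%), beside 10.2% of all 1408 abundant autosomal sites. A ratio of 0.5 or less was seen at 15 (6.98%, 3.96 to 11.2%), beside 7.95%. The shares of dense sites past 2-fold were near the background in both directions. A site could meet the read minimum, set on pooled reads, through 1 library alone, and CU5T45 had more reads. Over all 16684 clusters of 30 or more reads, 12.3% had a ratio of 2 or more and 14.3% a ratio of 0.5 or less. Each oligo had 1 library, so no difference has a replicate check, and the intervals below are exact binomial intervals that cover counting error only. By these, 135 dense sites had an interval above 1, 52 below 1 and 28 included 1. A ratio above 1 was seen at 67.9% of the dense sites and 67.6% of the other abundant sites. The lean toward CU5T45 was thus alike in both sets. Shares are of whole libraries, mitochondrial reads included, so a ratio above 1 is relative to the rest of the library.

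The 5 highest ratios included a site nearly missed by the beads. At chr1:137648808 on the plus strand CU5T45 had 1840 reads and oligo(dT)10-25 had 1, a ratio of 951 with a 95% interval of 170 to 37584. This site met the minimum of 1000 pooled reads through CU5T45 alone. Of the CU5T45 reads, 1828 were at the top position, where oligo(dT)10-25 had 0. Its 17 and 15 CLIP lines lay on both sides of the cut. At chr11:50013656 on the minus strand the counts were 5698 in CU5T45 and 265 in oligo(dT)10-25, a ratio of 11.1 (9.82 to 12.6), with 19 of 25 and 19 of 27 lines downstream.

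The other 3 were close to each other, at 2.83 (chr16:57153144, plus strand), 2.80 (chr17:65929392, minus strand) and 2.76 (chr19:10704311, plus strand). Counts at the last of these were 3229 in CU5T45 and 604 in oligo(dT)10-25. A gap thus separated the first 2 sites from the rest. Their CLIP lines had no common place: at chr16:57153144 12 of 18 and 13 of 21 lines lay upstream, while at chr17:65929392 17 of 19 and 18 of 20 lay downstream.

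The 5 lowest ratios were all read more by the beads. At chr16:56690444 on the minus strand CU5T45 had 626 reads and oligo(dT)10-25 had 1961, a share 6.06-fold lower in CU5T45 (5.54 to 6.64). At chr14:120830919 on the plus strand the counts were 413 and 1091 in the same order, 5.11-fold lower in CU5T45. At chr8:67196935 on the minus strand they were 295 in CU5T45 and 746 in oligo(dT)10-25, 4.89-fold lower. These 3 were the dense sites past 4-fold in this direction. They had 11 and 12, 10 and 10, and 14 and 16 CLIP lines, all near the minimum. The last 2, chr2:75513572 on the minus strand and chr3:89053644 on the plus strand, were 2.88-fold and 2.87-fold lower.

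Cleavage at the dense sites was mostly concentrated on 1 position. The top position held a median of 77.6% of a site's reads (quartiles 54.5% and 93.8%, range 15.7 to 99.8%), against 75.4% (56.3% and 91.3%) at the other abundant sites. By library, the median was 77.1% with CU5T45 and 78.5% with oligo(dT)10-25. At 179 dense sites (83.3%, 77.6 to 88.0%) the top position held 50% or more of the reads, against 81.4% of the others. For 75% or more the shares of sites were 55.3% and 50.9%, and for 90% or more 33.0% and 28.1%. The gap was wider for 95% or more of the reads at 1 position, reached by 49 dense sites (22.8%, 17.4 to 29.0%). Of the 1193 others, 188 reached it (15.8%, 13.7 to 18.0%). These intervals overlap, and sites are not replicates, so no test was made. Both sets had a median span of 31 nt and 11 positions. The libraries named the same top position at 205 of the 214 dense sites with 100 or more reads in both (95.8%), against 1108 of 1185 others (93.5%).

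The sharpest and the most scattered dense sites both carried many kinds of CLIP pattern. At chr13:51943843, where the lines lay far downstream, 99.8% of the reads were at 1 position and the whole site had 3 positions in 6 nt. The next were chr2:156699298 at 99.7%, chr8:96704226 at 99.6% and chr17:35122835 at 99.5%, all on the plus strand. At chr8:96704226, 25 of 28 and 32 of 36 lines lay upstream. At the scattered end, after chr17:39985167, the top position held 22.0% at chr2:90899585 on the plus strand, where all 26 and 29 lines lay downstream. It held 27.8% at chr9:114495220 on the minus strand and 31.8% at chr18:33358944 on the minus strand, where all 10 and 10 lines lay upstream. The number of lines and the share at the top position had a Spearman coefficient of -0.021 over the 215 sites.

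**Figure D5:**
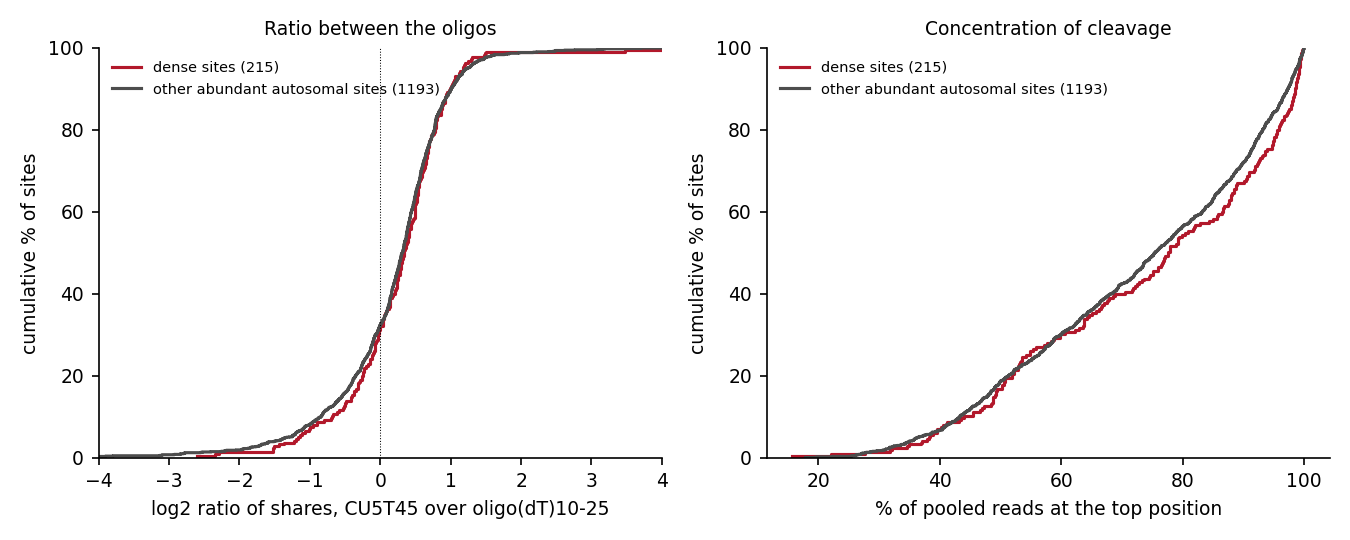
Cumulative share of sites against the log2 ratio of shares of CU5T45 over oligo(dT)10-25 (left) and against the share of pooled reads at the top position (right), for the 215 dense sites (red) and the 1193 other abundant autosomal sites (grey); ratios beyond the axis, among them the dense site at 951, count but are not drawn. The ratio curves nearly coincide apart from their lower ends, with medians of 1.26 and 1.24, and the curves of the top share part at the right, where 22.8% of dense sites and 15.8% of the others had 95% or more.

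Dense sites lay on every autosome and on both strands, 119 on the plus and 96 on the minus strand. All 1408 abundant autosomal sites were split into 723 and 685 in the same order. By number of dense sites, chromosome 11 had most, with 24 of its 123 abundant sites (19.5%, 12.9 to 27.6%). Chromosome 13 had fewest, with 3 of 34 (8.82%, 1.86 to 23.7%). By share, chromosome 18 was highest, with 10 of 42 (23.8%, 12.1 to 39.5%). All 3 intervals include the 15.3% over all autosomes. A neighbour on the same strand was common: 101 dense sites (47.0%) had another site of 30 or more reads within 5000 nt, against 41.2% of the others. Within 200 nt, 26 (12.1%) had one, against 11.8%. The dense site was the strongest within 5000 nt in 207 cases (96.3%), against 96.5% of the others. Sites with no neighbour are included in these cases. Another dense site lay within 5000 nt of 7 dense sites (3.26%), and a dense site lay as near to 7 of the 1193 others (0.587%).

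Those 7 dense sites formed a group on chromosome 18 and pairs on chromosomes 4 and 8, described here after their values were seen. On the plus strand of chromosome 18, the dense sites at 78021141, 78021250 and 78021607 lay in a row. Pooled reads were 1202, 1604 and 36795, and lines numbered 11 and 11, 18 and 23, and 81 and 91. At the first site 10 of 11 lines lay upstream in each replicate, and at the middle one 16 of 18 and 21 of 23 lay downstream. The windows of these 2 overlap, so some lines counted for both. On the minus strand of chromosome 8 the windows also overlap, at 67196935 and 67197022. Cleavage at 67197022, the upstream one, had 762 reads in CU5T45 and 319 in oligo(dT)10-25, a ratio of 1.23. The downstream one was the site with 4.89-fold lower share in CU5T45. Median midpoints of the lines were 63 and 62.25 nt from the upstream site and -23 and -23.2 nt from the downstream one. On chromosome 4, the minus-strand sites at 43528553 and 43527582 had 26 and 36 lines and 13 and 15 lines, and most of them lay upstream at both.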

How the data were processed

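The mixture's RNA was poly(A)-selected, fragmented, captured, amplified and sequenced as 72 nt reads, per the labels' protocols. No molecular identifiers are described, so intervals cover counting error only. CLIP RNA was trimmed with RNase T1. Bowtie, Novoalign and mm9 are named in the submitters' processing notes, with no roles. Read filters are not given in the sources used here.

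The deposited counts are whole read counts, in the fifth column of each file. 3'READS lines are single positions, and CLIP lines are distinct alignments. Each sample's group came from its labels. Counting, clustering and intervals used scipy 1.17.1, pandas 2.3.3 and numpy 2.4.6 under Python 3.11.15, with figures from matplotlib 3.10.9, and were tested on simulated data. Intervals of shares are exact Clopper-Pearson 95% intervals.

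Named sites were the 10 with most lines, the 6 with most reads, the 5 highest and 5 lowest ratios, the 4 highest and 4 lowest top shares, and those nearest the minimums. Sites and measures were chosen with earlier results of these data known. Alternatives changed the gap, window, minimums, CLIP placement, read counting and replicates. Gene names and sequence around the sites were not analysed here, as the reference used another build.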

Additional observations from a re-analysis of the deposited data

How the results depend on the processing

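Under 14 alternatives, 7 results gave 98 values, of which 87 kept within a set tolerance: 1.5 times for the number of sites, the exact 95% interval for a share, and the same 5 nt bin for the peak. Within it, the number of sites was 312 with a window of 200 nt, 165 with 50 nt and 156 with CU5T45 thinned to the other library's depth, and with at least 500 reads 3.88% of the sites had 10000 or more, against 6.51% as reported. The share of dense sites with more lines downstream, 39.1% by midpoints, was 22.9% by 5′ ends and 61.6% by 3′ ends, and the highest bin then began at -30 and 0 nt, as the ends lie on either side of the midpoint. With at least 20 lines the set had 94 sites and the bin began at -30 nt. With at least 500 or 2000 reads it had 361 or 114 sites, and at 2000 the share 2-fold lower in CU5T45 was 2.63% and that with 10000 or more reads 12.3%. Without either CLIP replicate the bin began between -25 and -20 nt, and the set had 218 to 276 sites. Without the site with most lines, an alternative chosen after seeing the data, the upstream flank held 2.61 and 3.16 lines per 100 nt. The share with 50% or more of the reads at the top position kept within 80.9 and 84.7%, and that 2-fold higher in CU5T45 within 9.06 and 13.8%. No paired analysis was possible because there was 1 library per oligo, and the CLIP replicates have no counterpart in another group. At 10 lines a site, counting error alone spans much of the range between sides.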

Other observations

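The choice of autosomes left out 14 abundant sites that met both minimums, 5 of 29 on the X chromosome and 9 of 15 on the mitochondrial genome. On the mitochondrial plus strand the sites at 1923 and 1023 had 406 and 403 lines and 114 and 136 lines. On the X chromosome the site with most lines, at 70741274 on the plus strand, had 25 and 26 lines with 800 reads in CU5T45 and 815 in oligo(dT)10-25.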
